A study of Caenorhabditis elegans with 4 samples.

Results

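The nuclear-encoded genes of oxidative phosphorylation were followed in larvae of the roundworm Caenorhabditis elegans, taken whole. Members were the protein-coding genes on nuclear chromosomes whose symbols begin with nuo, ndu plus further letters, gas, sdha, sdhb, sdhc, sdhd, isp, ucr, cyc, cox, atp, asb or asg. The annotation held 69 such genes. Of these, 62 had at least 1 matched transcript accession and so were among the 41614 genes with a value in the deposited table, and 61 passed the filter of at least 1 FPKM in at least 2 libraries. FPKM count fragments per kilobase of transcript relative to all mapped fragments. The members without a matched accession were atp-4, cox-14, cox-16, cyc-2.1, nduc-2, nuo-3 and ucr-11, which were not analysed here. ucr-2.1 had 1 of its annotated accessions in the table and was listed at 0 in all 4 libraries.

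The dve-1 mutant, which carries the allele uf171, was compared with wild type, with 2 libraries each and 4 in all. The question the design poses is which transcripts differ between these genotypes. Both genotypes were labelled as whole animals at the L4 stage and were kept at 25 degrees Celsius on plates with E. coli OP50, and the labels name no treatment. The protocol speaks of about 1200 collected L1 larvae, whereas the titles say L4, so the stage is given as labelled and each library is a pool of animals. The labels do not tell separate cultures from repeat libraries of the same culture. A p-value here thus sets a difference only against the scatter between libraries, for which a technical origin is possible.

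Oxidative phosphorylation takes place in the inner mitochondrial membrane. Complex I takes electrons from NADH and complex II from succinate, complex III passes them on to cytochrome c, and complex IV hands them to oxygen. The proton gradient built on the way drives the ATP synthase. A few subunits are encoded on the mitochondrial genome and all others in the nucleus. In C. elegans, mutations or RNA interference of several of these genes, among them gas-1, isp-1, nuo-6, cox-5B and atp-3, are known for effects on lifespan, growth or stress resistance, and a block of the chain can switch on the mitochondrial unfolded protein response, in which the homeodomain protein DVE-1 takes part.

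The libraries rested on an estimated 14320000 and 14040000 fragments in the dve-1 mutant and 14860000 and 15280000 in wild type (replicates 1 and 2, in this order throughout). dve-1 itself stood at 23.0 and 21.1 FPKM in the mutant and at 14.2 and 13.9 FPKM in wild type (limma adjusted p = 0.874), and the labels do not call uf171 a deletion, so its level is no test of the genotype. Values were found for 7 of 8 intestine markers, 6 of 7 of body wall muscle, 4 of 4 of pharyngeal muscle, 6 of 8 of neurons, 5 of 5 of hypodermis and 7 of 7 of germ line. Of these, the neuronal gene rab-3 was listed at 0 in mutant replicate 1, and no other marker was at 0 in any library. The libraries of 1 genotype differed in reproductive transcripts. The 28 sperm markers summed to 6447 and 18437 FPKM in the mutant and to 16013 and 10877 FPKM in wild type, and the 12 oocyte markers to 302 and 1153 FPKM in the mutant and 501 and 358 FPKM in wild type. None of these sperm and oocyte markers was at 0. In RNA from whole animals, fewer cells of a type and less RNA per cell cannot be told apart.

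The machinery as a whole was among the more abundant transcripts, with a median mean level of 427 FPKM over the 61 tested members, against 21.1 FPKM over the 13479 tested protein-coding genes. Means over the 4 libraries ran from 26.1 FPKM for cox-10 to 4818 FPKM for cox-7C, and 54 members lay above 100 FPKM. The lowest estimate for any of the 61 in any library was 509 fragments, for cox-18. The summed FPKM of the 62 members made up 2.21% and 1.91% of nuclear protein-coding FPKM in the mutant libraries and 2.04% and 2.21% in the wild type libraries. The mutant libraries held the highest and the lowest of these shares, so the genotypes overlapped. Nuclear protein-coding FPKM summed to 1907000 and 2052300 in the mutant and 2010900 and 2004200 in wild type. Cytosolic ribosomal protein genes held 849900 and 895270 of these in the mutant and 845960 and 894830 in wild type. The members' shares thus depend strongly on the ribosomal genes.

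**Figure D1:**
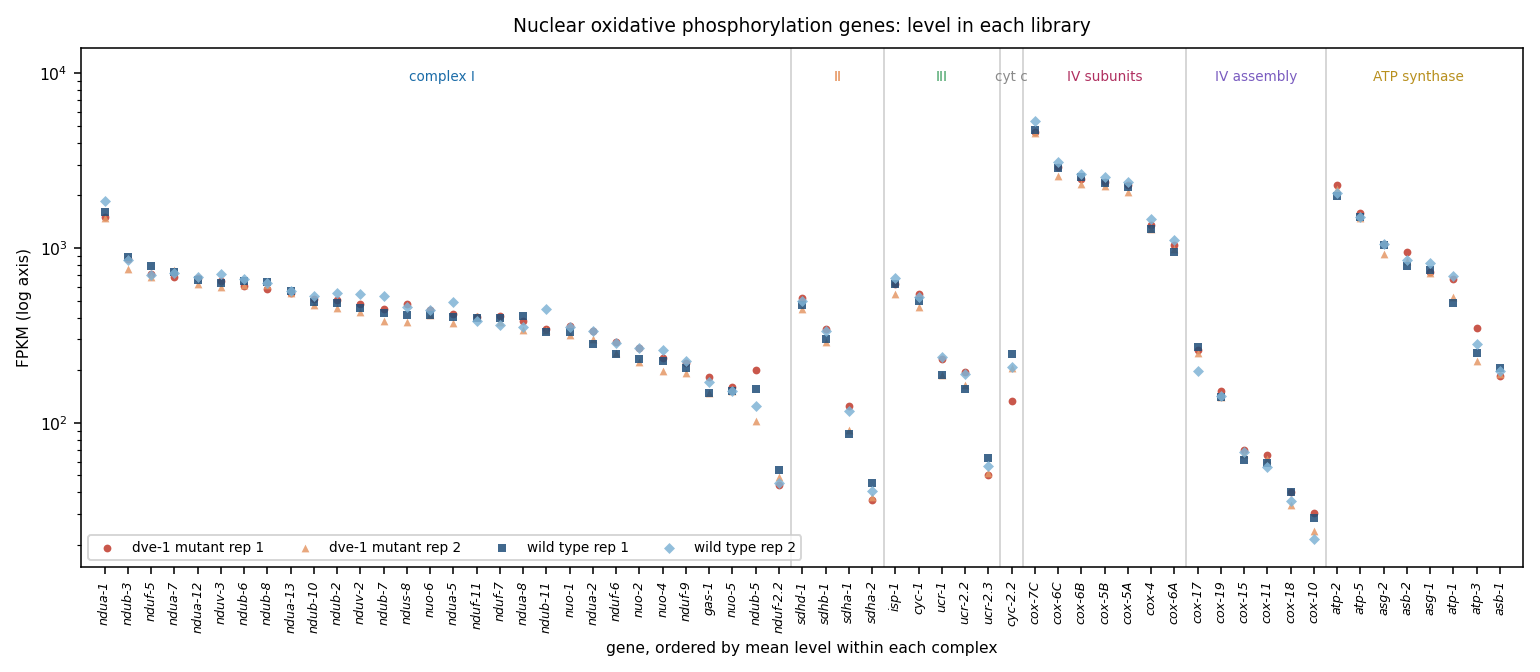
FPKM of the 61 members with a value above 0 (log axis), with 1 symbol per library and genes ordered by mean level within each complex. The 4 libraries lie close together for nearly every gene, while levels run from 26.1 FPKM for cox-10 to 4818 FPKM for cox-7C.

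Levels were layered by complex on the FPKM scale, which divides by transcript length. Shorter members still had higher FPKM (Spearman's rho -0.48 over the 61 tested members), and the part of length in this layering was not tested. The 7 nuclear subunits of complex IV were the most abundant group, at 1020 to 4818 FPKM, and carried 40.4% and 41.0% of the members' summed FPKM in the mutant and 41.3% and 42.1% in wild type. Complex I, with 30 measured members at 48.1 to 1609 FPKM, carried 33.0% and 33.1% in the mutant and 33.6% and 33.2% in wild type. The 8 measured members of the ATP synthase carried 18.5% and 18.1% in the mutant and 17.1% and 16.9% in wild type, so that both mutant shares lay above both wild type shares. For the complex IV subunits and for complex I both mutant shares lay below both wild type shares. All these shares sum to a whole and so are not independent. The summed FPKM of each of these groups overlapped between genotypes. For the ATP synthase the sums were 7802 and 7094 FPKM in the mutant and 7039 and 7492 FPKM in wild type. Complex III had 3.902% and 3.594% in the mutant and 3.719% and 3.819% in wild type, and complex II had 2.415% and 2.209% in the mutant and 2.201% and 2.232% in wild type. The 6 measured assembly factors of complex IV, at 26.1 to 245 FPKM, all stood below every nuclear subunit of that complex.

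None of the 61 tested members passed the threshold of an adjusted p under 0.05 (limma, Benjamini-Hochberg over 14664 genes), where 0.130% of all tested genes passed. The members are all protein-coding, and of the 13479 tested protein-coding genes only 1 passed. The smallest unadjusted p of a member was 0.166, so 0 members lay under an unadjusted 0.05 in either direction, where all tested genes gave 2.05% higher and 2.54% lower in the mutant. Of the 13479 protein-coding genes, 202 lay under it as higher and 265 as lower. By sign, 20 members were higher and 41 (67.2%) lower in the mutant. Of all tested genes 53.8% were lower, and of tested protein-coding genes 54.7%. These shares are also the background for the later counts by sign from the same fit. The members' median log2 fold change was -0.04, beside -0.02 over all tested genes and -0.03 over tested protein-coding genes. Quantile normalization gave 29 higher and 32 lower with a median of -0.00, and the median turned to 0.01 without dve-1 mutant replicate 2, against -0.13 without dve-1 mutant replicate 1. Leaving out a wild type library gave -0.09 (replicate 1) or -0.01 (replicate 2). All log2 fold changes are differences of log2(FPKM + 1), the mutant's mean less that of wild type, which understates the change of low genes.

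The 2 genotypes did not overlap for 14 members. The mutant libraries lay above both wild type libraries for 3 members (4.92%), where 11.9% of all tested genes did so. They lay below both for 11 members (18.03%), against 16.2% of all tested genes. The 3 were atp-2, cox-11 and nduf-11, and the 11 were asb-1, asg-1, cox-6B, cox-7C, cyc-2.2, ndua-1, ndua-13, ndub-6, ndub-8, sdha-2 and ucr-2.3.

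The interval of each gene shows which sizes of difference the libraries allow. Every tested member's 95% interval held 0, and for 59 of 61 it lay within a log2 fold change of -1 to 1. The exceptions were cyc-2.2, with an interval of -1.22 to 0.30, and ndub-5, with -1.05 to 1.13. Differences were small: 56 members (91.8%) had a fold change within 0.2 on the log2 scale, and the median size was 0.08, against 0.17 for all tested protein-coding genes. Members are abundant, so the same was taken over genes with a mean of at least 100 FPKM. There the median size was 0.08 for 54 members and 0.15 for 1849 protein-coding genes. Small differences were not particular to the members. The median size was 0.07 for mitochondrial ribosomal protein genes and 0.10 for cytosolic ribosomal protein genes. It was 0.08 for genes of pyruvate oxidation and the citric acid cycle.

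**Figure D2:**
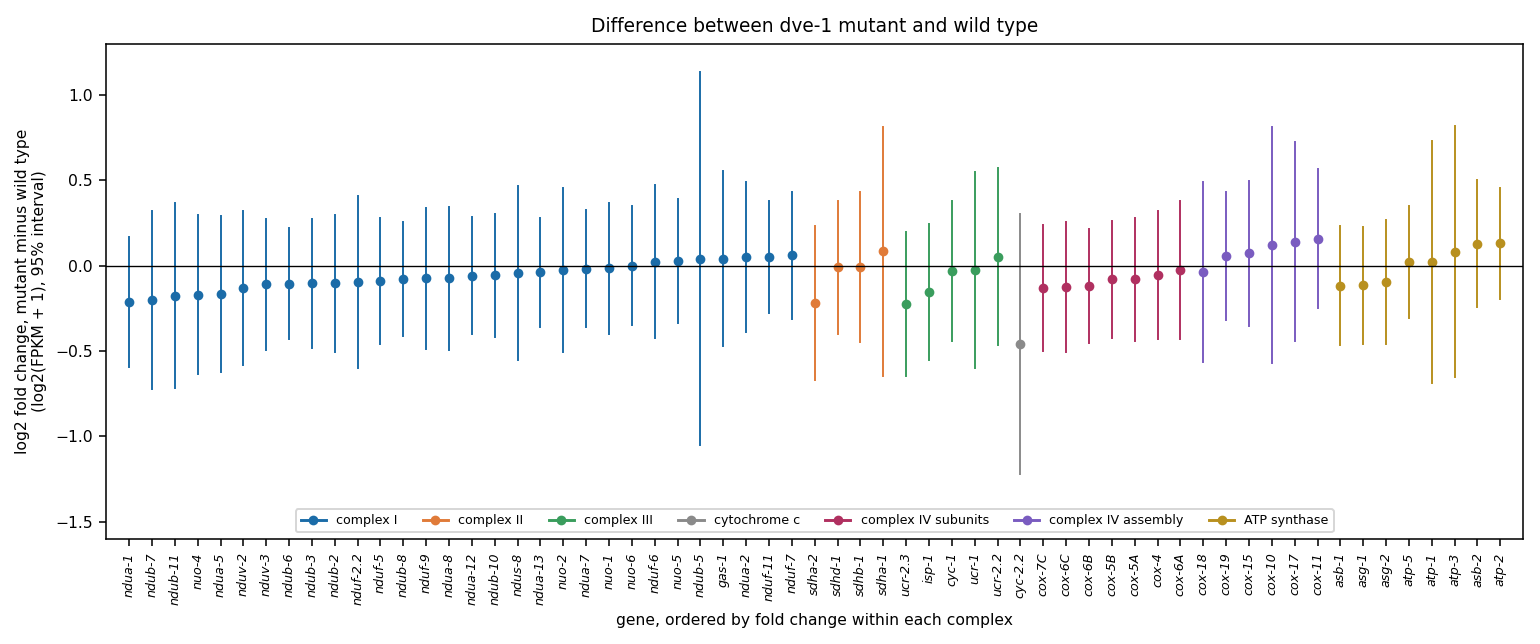
Log2 fold change, dve-1 mutant minus wild type, of the 61 tested members with the 95% interval of limma, grouped by complex. Every interval crosses 0, the largest estimate is -0.46 for cyc-2.2, and the widest interval belongs to ndub-5.

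Complex I begins with the peripheral arm that oxidises NADH. nuo-1, the flavin-binding subunit, had 358 and 319 FPKM in the mutant and 330 and 353 FPKM in wild type (log2 fold change -0.02, SE 0.14, limma adjusted p = 0.9995). gas-1, a core subunit next to the quinone site and a classic C. elegans mitochondrial mutant, read 183 and 147 FPKM in the mutant and 149 and 171 FPKM in wild type, with a log2 fold change of 0.04 (95% interval -0.47 to 0.55). In both genes a mutant library was highest and the other mutant library lowest. nuo-2, a core subunit of the same arm, read 268 and 222 FPKM in the mutant and 231 and 266 FPKM in wild type, and nuo-6, an accessory subunit, 439 and 415 FPKM in the mutant and 413 and 442 FPKM in wild type. Their log2 fold changes were -0.02 and 0.00, and the groups overlapped in both.

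The accessory subunit gene ndua-1 was the most abundant of complex I and had the largest difference within it. It read 1498 and 1480 FPKM in the mutant and 1602 and 1855 FPKM in wild type, with means of 1489 ± 12.9 and 1728 ± 178 FPKM (SD, n = 2 each). The mutant libraries agreed closely and both lay under wild type, but the gap between the means was smaller than the distance between the wild type libraries (log2 fold change -0.21, SE 0.13, limma adjusted p = 0.9995). Of all 30 members of complex I, 8 were higher and 22 lower by sign, with a median of -0.06, and without dve-1 mutant replicate 2 the split was 14 to 16. nuo-5, a large core subunit that carries iron-sulfur clusters, barely varied, at 161 and 151 FPKM in the mutant and 153 and 153 FPKM in wild type. nduv-2, a core iron-sulfur subunit, read 477 and 430 FPKM in the mutant and 451 and 545 FPKM in wild type. The wild type libraries of nduv-2 lay far apart, and the genotypes overlapped for both genes.

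Among the accessory subunits that did not overlap, ndub-6 read 607 and 613 FPKM in the mutant and 644 and 667 FPKM in wild type, ndub-8 579 and 618 FPKM in the mutant and 637 and 627 FPKM in wild type, and nduf-11 404 and 408 FPKM in the mutant and 399 and 385 FPKM in wild type. Of these 3 genes nduf-11 alone was higher in the mutant. ndua-13 had the tightest replicates of them, with 550.4 and 549.5 FPKM in the mutant and 564 and 566 FPKM in wild type, and a log2 fold change of -0.04. ndub-5 had the widest spread, with 202 and 103 FPKM in the mutant and 157 and 125 FPKM in wild type. The genes from nuo-5 to ndub-5 in this account were chosen for mention after their values were seen.

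Complex II, succinate dehydrogenase, links the citric acid cycle to the chain. sdhb-1, its iron-sulfur subunit, stood at 343 and 290 FPKM in the mutant and 300 and 335 FPKM in wild type. sdhd-1, a membrane anchor, read 516 and 447 FPKM in the mutant and 472 and 495 FPKM in wild type. For both genes the mutant libraries held the highest and the lowest value, and the log2 fold change was -0.01. The flavoprotein gene sdha-1 was also highest in mutant replicate 1, but lowest in wild type replicate 1, with 125 and 91.2 FPKM in the mutant and 86.8 and 117 FPKM in wild type (log2 fold change 0.08, 95% interval -0.65 to 0.81). No member for the other anchor was taken by the symbol rule, since the gene is called mev-1.

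In complex III, isp-1 encodes the Rieske iron-sulfur protein and had 626 and 545 FPKM in the mutant and 623 and 677 FPKM in wild type. The difference was -0.15 on the log2 scale (SE 0.14, limma adjusted p = 0.9995), and the groups overlapped by a narrow margin. cyc-1, the cytochrome subunit, read 542 and 461 FPKM in the mutant and 497 and 526 FPKM in wild type, and ucr-1, a core protein, 232 and 187 FPKM in the mutant and 189 and 238 FPKM in wild type. Both had a log2 fold change near 0, of -0.03 for cyc-1 and -0.02 for ucr-1, and in both mutant replicate 2 was the lowest library. ucr-1 rested on 1 of its accessions, since the other one in the table was listed at 0 throughout.

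Cytochrome c, the mobile carrier, was represented by cyc-2.2 alone. This gene had the largest estimate of all members, at 133 and 205 FPKM in the mutant and 249 and 209 FPKM in wild type, with a log2 fold change of -0.46 (SE 0.27, limma adjusted p = 0.9995). dve-1 mutant replicate 1 set most of it: mutant replicate 2 lay just under wild type replicate 2, and the estimate was -0.15 when mutant replicate 1 was left out, against -0.77 when mutant replicate 2 was. Mutant replicate 1 was also the library with the lowest sperm marker sum, 6447 FPKM. Mutant replicate 2 had the highest sum, 18437 FPKM, while its cyc-2.2 value lay below both wild type libraries. The part of sperm cells in these values was not tested.

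All 7 nuclear subunits of complex IV were lower by sign, with a median of -0.08, and quantile normalization also left 7 of 7 lower at a median of -0.02. Leaving out wild type replicate 2 turned the sign of 2 of them and leaving out dve-1 mutant replicate 2 that of 1. In each of the 7 the highest value was in wild type replicate 2. cox-5B, whose knockdown is widely used to stress mitochondria in C. elegans, read 2373 and 2263 FPKM in the mutant and 2352 and 2548 FPKM in wild type (log2 fold change -0.08, SE 0.12). cox-7C, the most abundant member, read 4628 and 4562 FPKM in the mutant and 4730 and 5354 FPKM in wild type (log2 fold change -0.13, SE 0.13, limma adjusted p = 0.9995). cox-6B, chosen after its values were seen, was the other subunit gene whose groups did not overlap, at 2482 and 2314 FPKM in the mutant and 2561 and 2642 FPKM in wild type.

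cox-4, a subunit around the catalytic core, read 1350 and 1291 FPKM in the mutant and 1282 and 1468 FPKM in wild type, and cox-5A, another, 2297 and 2084 FPKM in the mutant and 2232 and 2394 FPKM in wild type. cox-6A, the least abundant of the 7, read 1035 and 985 FPKM in the mutant and 946 and 1115 FPKM in wild type. The log2 fold changes were -0.05 for cox-4, -0.08 for cox-5A and -0.02 for cox-6A, and the groups overlapped in each.

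The assembly factors of complex IV stood on the other side by sign, with 5 of 6 higher in the mutant and a median of 0.10. cox-11, needed to insert copper, read 65.1 and 62.3 FPKM in the mutant and 58.5 and 55.5 FPKM in wild type, a log2 fold change of 0.16 (SE 0.14, limma adjusted p = 0.9995), the largest positive value among the members. cox-17, a copper chaperone, read 261 and 249 FPKM in the mutant and 272 and 197 FPKM in wild type. cox-10, which takes part in making the heme used by the complex, read 30.4 and 24.1 FPKM in the mutant and 28.6 and 21.5 FPKM in wild type. In both of these genes wild type replicate 2 was the lowest library. Without wild type replicate 2 or without mutant replicate 1 the split of the 6 genes was 3 to 3.

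The ATP synthase had 5 members higher and 3 lower by sign, with a median of 0.02, and without dve-1 mutant replicate 1 the split was 2 to 6. atp-2, the catalytic beta subunit, had the smallest unadjusted p among members that were higher in the mutant, at 0.325. It read 2281 and 2172 FPKM in the mutant and 1991 and 2076 FPKM in wild type, with means of 2227 ± 76.9 and 2033 ± 60.0 FPKM (SD, n = 2 each) and a log2 fold change of 0.13 (SE 0.12, limma adjusted p = 0.9995). The alpha subunit gene atp-1 read 664 and 523 FPKM in the mutant and 484 and 693 FPKM in wild type, with no such order. The enzyme holds alpha and beta in equal number. atp-2 stood at 3.44 and 4.16 times the FPKM of atp-1 in the mutant and at 4.11 and 2.996 times in wild type. atp-3, a stalk subunit, read 349 and 227 FPKM in the mutant and 251 and 281 FPKM in wild type, and atp-5, another stalk subunit, 1588 and 1487 FPKM in the mutant and 1514 and 1510 FPKM in wild type. Both overlapped between genotypes, with log2 fold changes of 0.08 and 0.02.

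**Figure D3:**
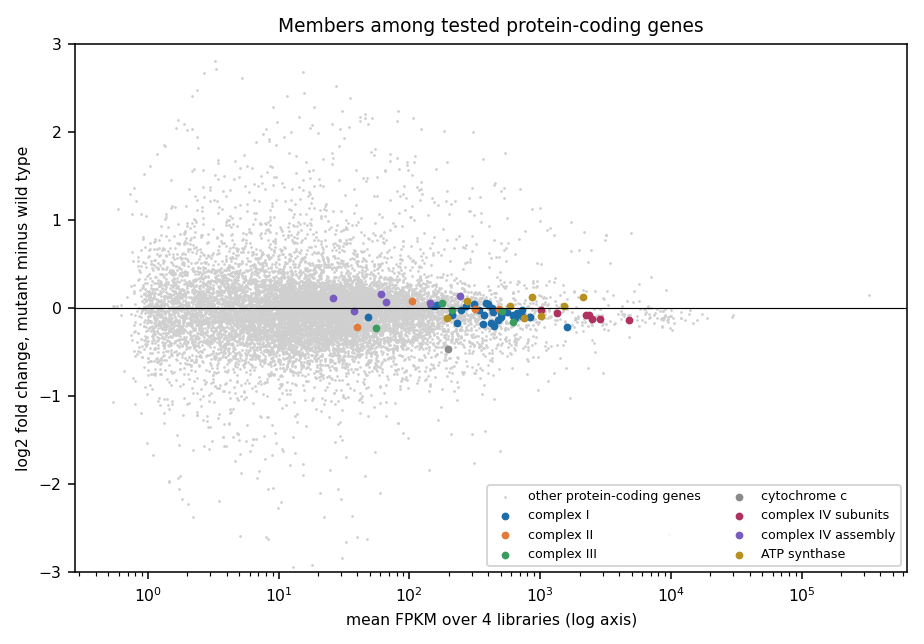
Log2 fold change, dve-1 mutant minus wild type, against mean FPKM (log axis) for tested protein-coding genes, with members coloured by complex. 19 protein-coding genes lie outside the plotted range of -3 to 3. The members sit in the upper part of the level range and near 0, between -0.46 and 0.16.

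Several subunits have alternative copies, and for these the share of each copy was followed. The peripheral stalk subunit b of the ATP synthase is made from asb-1, known for its role in the germ line, or from asb-2, used in the soma. asb-1 stood at 185 and 189 FPKM in the mutant and 207 and 199 FPKM in wild type, and asb-2 at 952 and 848 FPKM in the mutant and 794 and 851 FPKM in wild type. asb-1 thus held 16.3% and 18.2% of the pair's FPKM in the mutant and 20.7% and 18.95% in wild type. Both mutant shares lay under both wild type shares, and with 2 libraries against 2 no permutation test can reach 0.05. The log2 fold changes, -0.12 for asb-1 and 0.13 for asb-2, did not pass (limma adjusted p = 0.9995 for both).

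For the other pairs the shares overlapped between genotypes. sdha-2 read 36.1 and 37.5 FPKM in the mutant and 45.4 and 40.7 FPKM in wild type, and its share with sdha-1 was 22.4% and 29.1% in the mutant and 34.3% and 25.8% in wild type. ucr-2.3, a core protein gene of complex III, read 50.5 and 51.4 FPKM in the mutant and 62.6 and 56.9 FPKM in wild type, beside ucr-2.2 at 196 and 165 FPKM in the mutant and 157 and 191 FPKM in wild type. The share of ucr-2.3 in that pair was 20.5% and 23.7% in the mutant and 28.5% and 22.9% in wild type. nduf-2.2, a second copy of the subunit that gas-1 encodes, had 43.9 and 49.0 FPKM in the mutant and 54.02 and 45.4 FPKM in wild type, and a share of 19.3% and 25.0% in the mutant and 26.6% and 21.0% in wild type. The log2 fold changes of sdha-2 and ucr-2.3, both -0.22, were the next largest after cyc-2.2, with limma adjusted p = 0.9995.

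In each of these 4 pairs the smaller copy had its lowest share in dve-1 mutant replicate 1 and its highest in wild type replicate 1. The 7 germ line markers summed to 491 and 676 FPKM in the mutant and 631 and 519 FPKM in wild type, with none at 0, and major sperm protein genes to 6383 and 18312 FPKM in the mutant and 15883 and 10795 FPKM in wild type. Both sums were lowest in mutant replicate 1 as well, but highest in mutant replicate 2. Their part in the copy shares was not tested. asg-1 and asg-2, the copies for subunit g, showed no such order. asg-1 read 733 and 720 FPKM in the mutant and 753 and 822 FPKM in wild type, and asg-2 1050 and 928 FPKM in the mutant and 1045 and 1061 FPKM in wild type. asg-2 held 58.9% and 56.3% of the pair in the mutant and 58.1% and 56.3% in wild type. Fragments of related copies can be divided wrongly, and how the authors' counting treated them is not given in the sources used here.

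**Figure D4:**
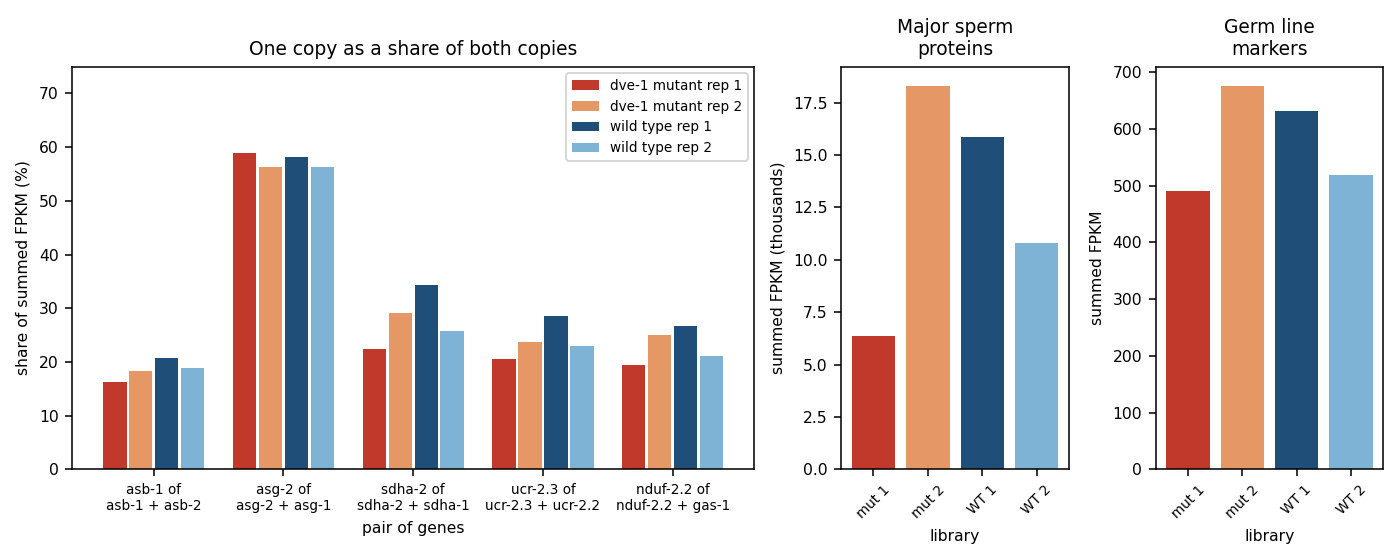
Left, the share (%) of 1 copy in the summed FPKM of a pair of alternative copies, with 1 bar per library. Middle and right, summed FPKM of the major sperm protein genes (axis divided by 1000) and of 7 germ line markers. Apart from asg-2, the shares are lowest in mutant replicate 1 and highest in wild type replicate 1, and the marker sums are lowest in mutant replicate 1 and highest in mutant replicate 2.

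The members shared an order of libraries that crossed the genotypes. Mutant replicate 1 lay above mutant replicate 2 for 52 of 61 members (85.2%), where 47.3% of tested protein-coding genes did so. Wild type replicate 2 lay above wild type replicate 1 for 43 of 61 (70.5%), against 36.4% of tested protein-coding genes. Wild type replicate 2 held the highest value for 26 members and mutant replicate 1 for 23, while mutant replicate 2 held the lowest for 35. As a median deviation from each gene's mean on the log2 scale, the members stood at 0.04 and -0.10 in the mutant and at -0.02 and 0.08 in wild type. When each library was left out in turn, 33 members changed sign in at least 1 fit, 24 stayed lower and 4 stayed higher.

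Some other lists moved across libraries alongside the members, and others did not. The 61 tested cytosolic ribosomal protein genes had median deviations of -0.01 and -0.07 in the mutant and -0.01 and 0.10 in wild type, and the 6 tested body wall muscle markers 0.12 and -0.19 in the mutant and -0.14 and 0.19 in wild type. Both lists had their highest median deviation in wild type replicate 2 and their lowest in mutant replicate 2, as the members did. Of the 6 body wall muscle markers, 3 were highest in wild type replicate 2 and 5 were lowest in mutant replicate 2. Mitochondrial ribosomal protein genes instead stood highest in mutant replicate 1, at 0.10, and lowest in wild type replicate 1, at -0.08. Germ line markers stood highest in mutant replicate 2, at 0.24, and lowest in mutant replicate 1, at -0.20. The body wall muscle markers summed to 5145 and 4496 FPKM in the mutant and 5349 and 5890 FPKM in wild type, with none at 0. Of these sums lev-11 alone held 2345 and 2143 FPKM in the mutant and 3024 and 2885 FPKM in wild type. The 7 tested intestine markers summed to 5525 and 5303 FPKM in the mutant and 3845 and 4964 FPKM in wild type, with none at 0, and had their highest median deviation in mutant replicate 1. By sign, all 7 tested intestine and all 4 tested pharyngeal muscle markers were higher in the mutant. All 5 tested hypodermis and all 6 tested neuron markers were lower. The genotypes did not overlap for 3, 1, 4 and 4 of them, in this order. Of all tested genes, 11.9% did not overlap as higher and 16.2% as lower. None of these markers passed the limma threshold. The part of any of these tissues in the members' values was not tested.

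**Figure D5:**
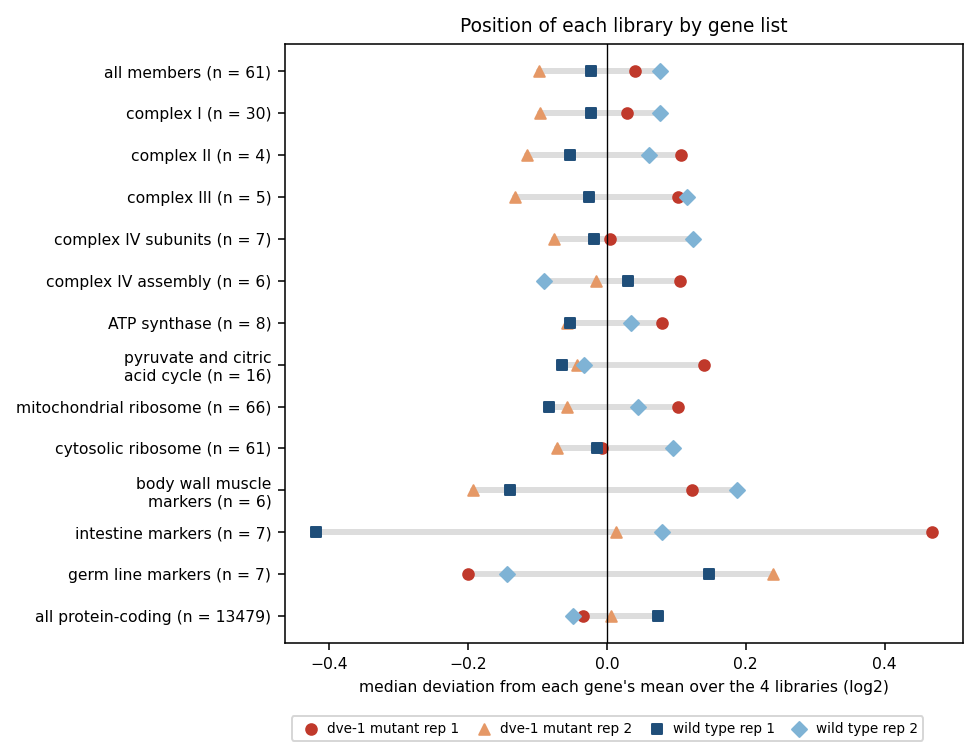
Median deviation of each library from the gene's mean over the 4 libraries (log2), for the members by complex and for other lists, with n the number of tested genes. The members run from mutant replicate 2 at -0.10 to wild type replicate 2 at 0.08, and the libraries of 1 genotype do not stand together.

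Related lists gave other splits by sign. Mitochondrial ribosomal protein genes had 46 of 66 higher in the mutant and a median log2 fold change of 0.06. Cytosolic ribosomal protein genes had 57 of 61 lower with a median of -0.09, and the mutant lay below both wild type libraries for 27 of them (44.3%), against 16.2% of all tested genes. Quantile normalization gave 24 higher and 36 lower for these genes with a median of -0.01, and leaving out wild type replicate 2 gave 22 higher and 39 lower with a median of -0.04. Without wild type replicate 1 or without mutant replicate 1 the mitochondrial ribosomal split turned to 26 higher and 40 lower. None of these genes passed the limma threshold, and 0 lay under an unadjusted p of 0.05. The difference between these lists and the members was not tested.

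Genes of the same pathway that the symbols do not take in were read from a chosen list. For electron transport and its partners, 17 of 20 genes were tested, with 7 higher and 10 lower in the mutant by sign, a median log2 fold change of -0.05 and 0 past the threshold. ant-1.1, the main ADP/ATP translocase, stood apart with 2920 and 3017 FPKM in the mutant and 2149 and 1650 FPKM in wild type. Both mutant libraries were above both wild type libraries, and the log2 fold change of 0.66 (SE 0.18, 95% interval 0.15 to 1.16) did not pass (unadjusted p = 0.0226, limma adjusted p = 0.800). The translocase copies ant-1.3 and ant-1.4 had log2 fold changes of -0.37 and -0.31. hpo-18, the epsilon subunit of the ATP synthase, read 3367 and 3627 FPKM in the mutant and 3651 and 4226 FPKM in wild type, and clk-1, of ubiquinone synthesis, 56.0 and 48.4 FPKM in the mutant and 57.0 and 53.5 FPKM in wild type. mev-1 was listed at 0 in all libraries and lpd-5 had no matched accession.

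The enzymes of pyruvate oxidation and the citric acid cycle had 16 of 17 genes tested, with 12 higher and 4 lower by sign, a median of 0.08, and 0 past the limma threshold or under an unadjusted p of 0.05. Without dve-1 mutant replicate 1 the split was 7 to 9 and the median -0.03. Their median deviation was 0.14 in mutant replicate 1 and between -0.07 and -0.03 in the other libraries. On the mitochondrial genome, 12 protein-coding genes were tested with limma, and 0 passed and 1 lay under an unadjusted p of 0.05. By sign 7 were higher and 5 lower in the mutant, with a median log2 fold change of 0.04. COX1, the catalytic subunit of complex IV, read 4738 and 4256 FPKM in the mutant and 5377 and 4601 FPKM in wild type, and ND2, of complex I, 328 and 367 FPKM in the mutant and 521 and 510 FPKM in wild type (log2 fold change -0.57, limma adjusted p = 0.634). ND4L, also of complex I, read 39.6 and 42.7 FPKM in the mutant and 33.7 and 17.4 FPKM in wild type, and ND6 46.9 and 46.8 FPKM in the mutant and 41.3 and 33.7 FPKM in wild type, with log2 fold changes of 0.74 for ND4L and 0.32 for ND6 that did not pass. ND3 was listed at 0 in mutant replicate 1.

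Members shared features that their symbols did not fix. They were short, with a median transcript of 841 nucleotides and 4 exons, against 1294 nucleotides and 6 exons for tested protein-coding genes, and ran from 321 nucleotides for cox-17 to 2444 nucleotides for nuo-5. Across the 61 tested members, longer transcripts had lower FPKM (Spearman's rho -0.48) and less negative log2 fold changes (rho 0.32). The same values over the 13469 tested protein-coding genes with a known length were -0.12 and 0.17. These are descriptions across genes of the same libraries. Of members with a transcript over 1000 nucleotides, 11 were higher and 11 lower by sign, and of the 39 shorter members 9 were higher and 30 lower.

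By position on WBcel235, 19 of the 69 members (27.5%) lay on chromosome I, where 16.1% of tested protein-coding genes lie, and 6 (8.70%) on chromosome X, against 13.4%. sdha-2 (chromosome I, 10683270 to 10685587) and ndua-13 (chromosome I, 10685825 to 10687058) lie 237 bases apart on the minus strand. ndub-11 and isp-1 lie 3.78 kb apart on the minus strand of chromosome IV. Whether the library kit kept strand is not given in the sources used here. Exons of nduv-2 overlap an antisense RNA gene over 11.6% of their bases, so the fragments of that stretch cannot be assigned with certainty.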

How the data were processed

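RNA-seq of total RNA from whole larvae gave 1 deposited table with 1 value per RefSeq transcript accession and library. The header gives no unit, and the deposited values were taken to be FPKM because Cufflinks appears, with TopHat2 and the build ce11, in the submitters' processing notes, where neither versions nor settings stand. Whether libraries were also scaled to each other is not given in the sources used here. Groups and replicate numbers came from the titles.

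Accessions were matched, ignoring version, to RefSeq genes of WBcel235, which has the coordinates of ce11: 47645 of 52491 matched (90.8%). FPKM were summed per gene, so the 5 members with fewer accessions in the table than annotated may be understated. Transcript lengths, exons and strand came from Ensembl release 115. Depth was estimated from the steps between low values, FPKM times length, of 1656 single-transcript genes, where 62.0% to 66.9% of the low values came within 0.1 of a whole number. A value of exactly 0 may be a failed estimate, so it is given as listed at 0.

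limma 3.58.1 in R 4.3.3 was fitted to log2(FPKM + 1), its prior variance following the mean level. Genes needed 1 FPKM or more in 2 libraries or more. Tests were two-sided, with a Benjamini-Hochberg adjusted p under 0.05 over all genes as the threshold. The median standard error was 0.26 and the moderated test had 3.84 degrees of freedom. Count models were not applied to FPKM. The fit was tested on simulated data with planted log2 fold changes larger than that of any member. It is thus no test of differences as small as theirs.

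The members, lists and tests were chosen with earlier results of these data known. Of 19 chosen members, values in every library were given for all but cyc-2.1, which had none. Library values were also given for alternative copies known as such (gas-1 and nduf-2.2 were paired later). The same holds for the 4 members with the smallest p per direction, and for the highest and lowest member of each complex. For some of these genes the log2 fold change or its SE was left out. Pairs of copies by protein identity were not sought, since no protein table was used here. Alternatives were median-centring, quantile normalization, no trend, a pseudocount of 0.1, no filter, a filter of 5 FPKM, protein-coding genes only, the highest accession per gene, a replicate block and each library left out.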

Additional observations from a re-analysis of the deposited data

How the results depend on the processing

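The count of members past the threshold was 0 under every alternative run. The count over all genes, 19, was 86 without the trend and 10 with a pseudocount of 0.1. It was 3 with no filter and 10 with a filter of 5 FPKM, and the cause was not tested. With protein-coding genes only this count was 0, where just 1 of the 19 genes was protein-coding. It was 0 without any 1 of the libraries (0 to 0) and 0 with the replicate block; each of these fits has 1 degree of freedom left over, where the full fit has 2. Same-numbered libraries did not deviate together (correlation -0.193 over 14664 genes), so the numbers were not taken as pairs, and the replicate block left 0 members called. A crossed replicate block, added after the data were seen, called 0 genes and 0 members.

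Of 416 values of 32 named members under the alternatives, 377 kept their direction and side of the threshold and 39 changed sign. Dropping the trend, changing the filter, taking protein-coding genes only or adding the replicate block left each fold change as it was. These settings could not change a sign, so the 377 are no measure of how stable the directions are. The 39 fell on 18 of the 32 members, and 31 of them arose in fits without 1 library. With median-centring sdhb-1 was 0.0031 and sdhd-1 0.0012. With quantile normalization nuo-1 was 0.088, nuo-2 0.053, sdhb-1 0.085, sdhd-1 0.026, cyc-1 0.0020 and ucr-1 0.044. Over the fits without 1 library, log2 fold changes ran from -0.114 to 0.197 for gas-1, -0.048 to 0.049 for nuo-6, -0.099 to 0.068 for nuo-1, -0.157 to 0.111 for nuo-2 and -0.217 to 0.028 for nduf-2.2. They ran from -0.141 to 0.309 for sdha-1, -0.127 to 0.112 for sdhb-1 and -0.113 to 0.094 for sdhd-1. They ran from -0.148 to 0.086 for cyc-1, -0.194 to 0.144 for ucr-1, -0.089 to 0.197 for ucr-2.2, -0.153 to 0.043 for cox-4 and -0.144 to 0.094 for cox-6A. They ran from -0.090 to 0.372 for cox-17, -0.076 to 0.318 for cox-10, -0.234 to 0.283 for atp-1, -0.228 to 0.394 for atp-3 and -0.024 to 0.071 for atp-5. The difference in the members' share of protein-coding FPKM, -0.06 percentage points, ran from -0.21 to 0.09 over these fits.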
